A study of Mus musculus with 3 samples.

Results

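Plasma cells of the mouse colon were taken from 3 single-cell RNA libraries of CD45+ sorted colon cells and were chosen by their UMI counts of Jchain, Mzb1 and Xbp1. Barcodes with at least 200 detected genes and at most 20% mitochondrial UMIs (unique molecular identifiers, each standing for 1 captured transcript) were kept. A kept barcode was a member if it held at least 20 UMIs of Jchain, at least 3 of Mzb1, at least 3 of Xbp1 and none of Cd3e, Cd3d and Cd3g. The rule found 111 members among 16690 kept barcodes: 61 of 6004 in C, 47 of 6143 in T1 and 3 of 4543 in T3.

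All 3 libraries came from male C57BL/6 mice and were made with droplet-based 10x 3′ chemistry after sorting for CD45, the surface protein shared by white blood cells. C was healthy colon without carcinogen. T1 was colon bearing low-grade, and T3 colon bearing high-grade, intraepithelial neoplasia. Both followed 1 dose of the carcinogen azoxymethane (AOM, 12 mg/kg) and 3 cycles of dextran sulfate sodium (DSS, 2.5% in drinking water for 7 days, then water for 14 days), begun at 6 to 8 weeks of age. Each group is 1 library, and the number of mice behind it is not in the labels. Differences between C, T1 and T3 are therefore differences between libraries, with no replicate check and no test, and cannot be told apart from differences between animals or preparations. Intervals are 95% intervals that cover counting error only.

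Plasma cells are the antibody-secreting end stage of B cells. In the gut wall most of them make IgA, which is joined into dimers by the J chain (Jchain) and carried across the epithelium into the lumen. The transcription factors Blimp-1 (Prdm1), IRF4 and XBP1 set up the secretory state: XBP1, the effector of the IRE1 arm of the unfolded protein response, drives genes of the endoplasmic reticulum (ER), and Mzb1 encodes an ER protein that helps antibody assembly.

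Whether the members were plasma cells was checked against genes the rule did not use. In 51 of the 61 C members and 45 of the 47 T1 members, at least 10% of all UMIs came from immunoglobulin genes. These members are called Ig-rich here. Their immunoglobulin share ran from 16.3% to 71.5% in C, with a median of 52.6%, and from 16.8% to 76.4% in T1, with a median of 48.9%. Sdc1 (the plasma cell surface proteoglycan CD138) was found in 46 of 51 Ig-rich cells in C and in 40 of 45 in T1. Tnfrsf17 (BCMA, a survival receptor for APRIL and BAFF) was found in 46 and 32 cells, and Derl3 (an ER-associated degradation factor) in 45 and 41. Prdm1 was found in 26 and 24 cells, Irf4 in 40 and 27, Eaf2 in 47 and 40, Fkbp11 in 37 and 33 and Pou2af1 in 43 and 33.

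The other 10 members in C went against the label, and so, in part, did the other 2 in T1. Immunoglobulin genes gave 0.520% to 2.13% of UMIs in these C barcodes, with a median of 0.731%, and 0.812% and 2.70% in those of T1. No member lay between these values and the lowest Ig-rich value. All 10 Ig-poor C members held transcripts of Ms4a1 (CD20, a B cell surface protein that plasma cells lose), with 11 to 42 UMIs per cell and a median of 18. All 10 also held Rgs13, a signalling regulator of germinal centre B cells. Of the 8 plasma cell genes outside the rule, Sdc1, Prdm1, Tnfrsf17 and Fkbp11 were at 0 UMIs in all 10. Derl3 was found in 1 of the 10 (3 UMIs), Irf4 in 3 (6 UMIs), Eaf2 in 9 (67 UMIs) and Pou2af1, which B cells also transcribe, in 10 (120 UMIs). Both Ig-poor T1 members held Ms4a1 and Rgs13, and Sdc1 and Tnfrsf17 were at 0 in both, while 1 of the 2 held Derl3 (17 UMIs), Prdm1 (3) and Fkbp11 (3). Jchain, a gene of the rule, ran from 20 to 65 UMIs in the Ig-poor C members and from 20 to 3630 in the Ig-rich ones. The Ig-poor members are given no cell type here, and each result below is given for the Ig-rich cells or for both sets, a split made after the values were seen.

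**Figure D1:**
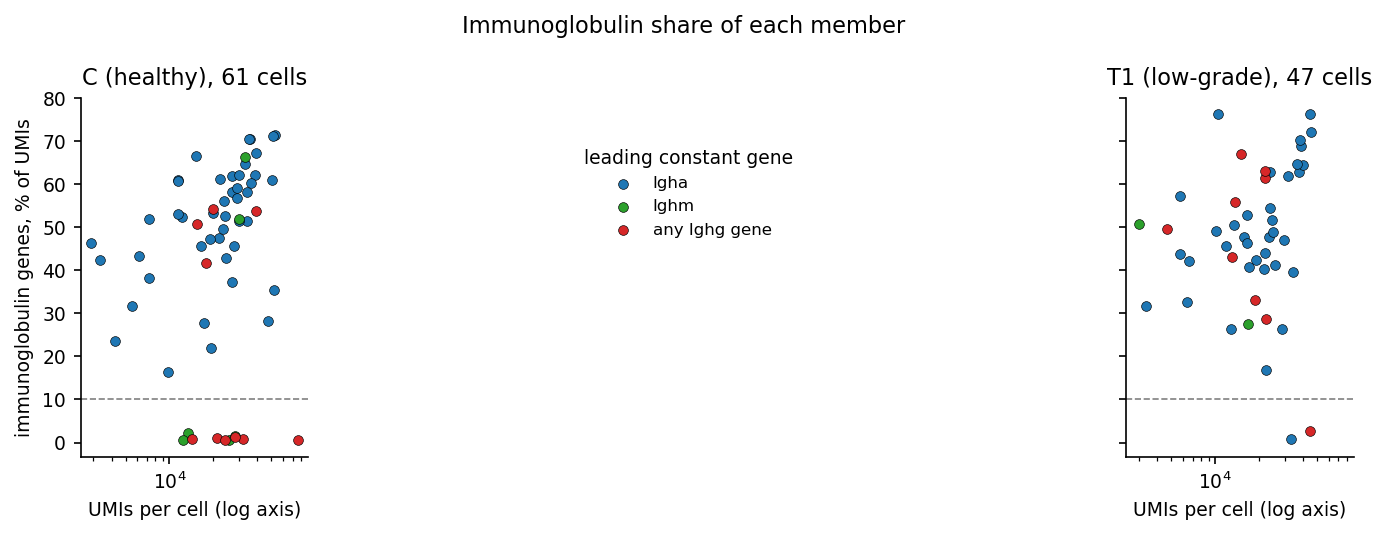
Each point is 1 member; the x axis is its total UMIs on a log axis, the y axis the percent of UMIs from immunoglobulin genes, and colour the leading heavy chain constant gene. The dashed line is at 10%: 10 of 61 C members and 2 of 47 T1 members lie under it, and no point lies between 2.70% and 16.3%.

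At the Jchain threshold, the nearest barcodes that met every other term had 18 and 19 UMIs just outside and 20 and 20 just inside in C. In T1 they had 11 and 13 outside and 21 and 55 inside. The CD3 term removed 28 barcodes in C and 22 in T1 that met the rest of the rule. Of these, 20 in C and 10 in T1 held a single CD3 UMI, and 3 in C and 11 in T1 held 10 or more.

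Transcripts of other cell types were low in the Ig-rich cells. The 8 T cell markers summed to 12 UMIs over the 51 C cells and 25 over the 45 T1 cells, and the 6 B cell markers to 24 and 53. The 6 myeloid markers summed to 31 and 51, of which Fcer1g alone gave 31 and 47. Among 5 epithelial markers, Epcam (an adhesion protein of epithelium) gave 66 of 69 UMIs in C, in 27 cells, and 51 of 54 in T1, in 22 cells, while the keratin gene Krt8 gave 1 and 0. Igha was also seen outside the members, in 63.8% of the other kept barcodes in C, 65.7% in T1 and 15.1% in T3. Its median there was 1 UMI in C and in T1, and 0 in T3. Igha medians in the Ig-rich cells were 2770 UMIs in C and 1814 in T1. Whether the Igha of other barcodes was free RNA, and the part of free RNA in the low-count results, was not tested.

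Some barcode sequences occurred in more than 1 library. C and T1 had 39 in common, C and T3 35, and T1 and T3 35. Among C members, 10 had their barcode in T1 and 10 in T3, and 2 T1 members had theirs in T3. In the other library these barcodes held between 1.12% and 1.49% of the member's UMIs, apart from 1 that held 11.4%. Leaving out every such member left 49 cells in C, 45 in T1 and 2 in T3, of which 41 in C and 44 in T1 were Ig-rich.

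Kept barcodes had a median of 4933 UMIs in C and 5272 in T1, from totals of 35489195 and 37208603 UMIs in 7903 and 8566 barcodes. Ig-rich plasma cells were far deeper, with 2891 to 53404 UMIs in C (median 24032) and 2996 to 45751 in T1 (median 21625). Outside immunoglobulin genes their medians were 11223 and 10589 UMIs. Mitochondrial shares were similar, with a median of 2.44% (0.104% to 19.5%) in C and 2.75% (1.05% to 17.0%) in T1.

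The members' share of kept barcodes was lower in T1 than in C by an amount whose interval included equality under the rule as given. Members were 1.02% of kept barcodes in C (exact interval 0.778% to 1.30%) and 0.765% in T1 (0.563% to 1.02%). The log2 ratio of the shares, T1 over C, was -0.41 (-0.99 to 0.16), an interval that includes equality. With 1 CD3 UMI allowed the shares were 1.35% and 0.928% and the ratio was -0.54 (-1.05 to -0.033), an interval that leaves equality just outside. For Ig-rich cells the shares were 0.849% and 0.733%, and the ratio was -0.21 (-0.82 to 0.39). The 3 T3 members were a smaller share, with a log2 ratio to C of -3.94 (-6.26 to -2.33). The rule's UMI thresholds are fixed numbers, and kept barcodes of T3 were shallower, with a median of 1803 UMIs against 4933 in C. The part of depth in this share was not tested. The share of a sorted sample moves with how many other CD45+ cells the tissue gave, so it does not count plasma cells in the tissue.

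Of the 3 T3 members, 1 used Ighg2b with 18395 UMIs and an immunoglobulin share of 25.8%, and 1 used Ighg2b with 6455 UMIs and a share of 62.4%. The other, with Igha, held 665 UMIs and carried the barcode of a C member of 52064 UMIs, so T3 added no comparison.

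IgA was the main antibody class in both tissues. Each cell was given the heavy chain constant gene with most of its constant gene UMIs. Among Ig-rich cells, 45 of 51 in C used Igha (88.2%, exact interval 76.1% to 95.6%) and 35 of 45 in T1 (77.8%, 62.9% to 88.8%), so the intervals overlapped. Over all members the IgA shares were 73.8% in C (60.9% to 84.2%) and 76.6% in T1 (62.0% to 87.7%), and the order of the libraries turned. Without members whose barcode was found in another library, they were 73.5% and 77.8%.

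The other Ig-rich cells of C were 3 with Ighg2b, 2 with Ighm and 1 with Ighg2c. Those of T1 were 3 with Ighg2b, 3 with Ighg2c, 2 with Ighm, 1 with Ighg1 and 1 with Ighg3. No member was led by Ighd or Ighe. Nearly all constant gene UMIs of an Ig-rich IgA cell came from Igha, at least 98.0% in C and 95.01% in T1. The Ig-poor C members were led by Ighg2b in 6 cases and by Ighm in 4, at median UMIs of 33 and 38.5. The lowest count was 7 UMIs of Ighm, and the lowest share of constant gene UMIs was 61.2%, for Ighg2b. These low-count assignments also enter the IgA shares over all members. Kappa light chain led in 49 of 51 Ig-rich cells in C and 43 of 45 in T1.

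The variable segments were diverse in both libraries. A leading heavy chain segment could be named in 50 of 51 Ig-rich cells in C and 44 of 45 in T1. These cells used 32 and 29 different Ighv segments, of which 12 occurred in both libraries, 37.5% of those in C and 41.4% of those in T1. Ighv8-8 was the most frequent in C, in 7 cells, and led 1 cell of T1. In C, 2 pairs of IgA cells had the same heavy and kappa segments, Ighv1-9 with Igkv6-14 and Ighv8-8 with Igkv3-2. In T1, 2 pairs also matched, Ighv1-81 with Igkv1-117 and Ighv5-16 with Igkv10-94. These pairs were read from kappa segments alone, while the rule first set took Igkv and Iglv segments together. Under that rule Iglv1 led 7 of 49 kappa cells in C and 9 of 43 in T1. The Ighv1-9 and Ighv1-81 pairs then matched on Iglv1, for Ighv1-9 not with the same cells. The source of these Iglv1 counts was not tested. No combination of isotype, heavy and kappa segment occurred in both libraries, among 42 combinations in C and 38 in T1. Counts over segments do not read the junction, so a shared pair does not show a shared clone, and reads of related segments can be split by the counting.

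Next, the secretory programme was read against B cells of the same library (2180 in C, 2385 in T1). Gene levels are UMIs summed over cells per 1000000 UMIs outside immunoglobulin genes (CPM). The rule chose the plasma cells by Jchain, Mzb1 and Xbp1, and the B cells were chosen by Cd79a, Ms4a1 and low Jchain. These ratios therefore describe the cells and were not tested. Over all genes the median log2 ratio, plasma over B, was -0.13 in both libraries, and 17.6% of 8362 genes in C and 17.9% of 8418 in T1 were at least 2-fold higher in plasma cells.

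ER folding genes were far above B cells in both libraries. Of 32 measured ER chaperone and unfolded protein response genes, 26 in C and 25 in T1 were at least 2-fold higher, with a median log2 ratio of 2.53 and 2.58. Hspa5 (BiP, the main ER chaperone, which holds unassembled heavy chains) stood at 3953 CPM in plasma and 756 CPM in B cells of C, and at 3467 and 727 CPM in T1. Hsp90b1 (GRP94, an ER chaperone) stood at 5312 and 273 CPM in C and at 4978 and 267 CPM in T1. Both genes were thus high in plasma cells of healthy and of low-grade tissue alike. The log2 ratio of Pdia6, a disulfide isomerase, was 3.14 in C and 3.21 in T1. Derl3 reached 8.04 and 8.57, and Creld2, an ER stress-inducible protein, 5.31 and 5.19.

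Other lists followed the antibody-making route. Translocon and signal peptide genes, which pass new chains into the ER, had medians of 2.34 in C and 2.46 in T1, and glycosylation and ER-to-Golgi transport genes 2.17 and 2.20. The tRNA synthetases had medians of 1.05 and 0.82, and nuclear-encoded oxidative phosphorylation genes 0.95 in both. Plasma identity genes had medians of 4.91 and 4.97, with Tnfrsf17 at 9.88 and 9.10 and Sdc1 at 7.04 and 6.50. Ccr10, the receptor for the gut and skin chemokines CCL28 and CCL27, gave 227 UMIs in the plasma cells and 1 in the B cells of C, and 248 and 1 in T1. B cell genes lay at the other end, at medians of -5.50 and -3.62 for the residual B cell list and -3.87 and -2.87 for MHC class II. In both lists T1 lay nearer to B cells than C did. The residual B cell list holds Ms4a1, by which the B cells were chosen.

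**Figure D2:**
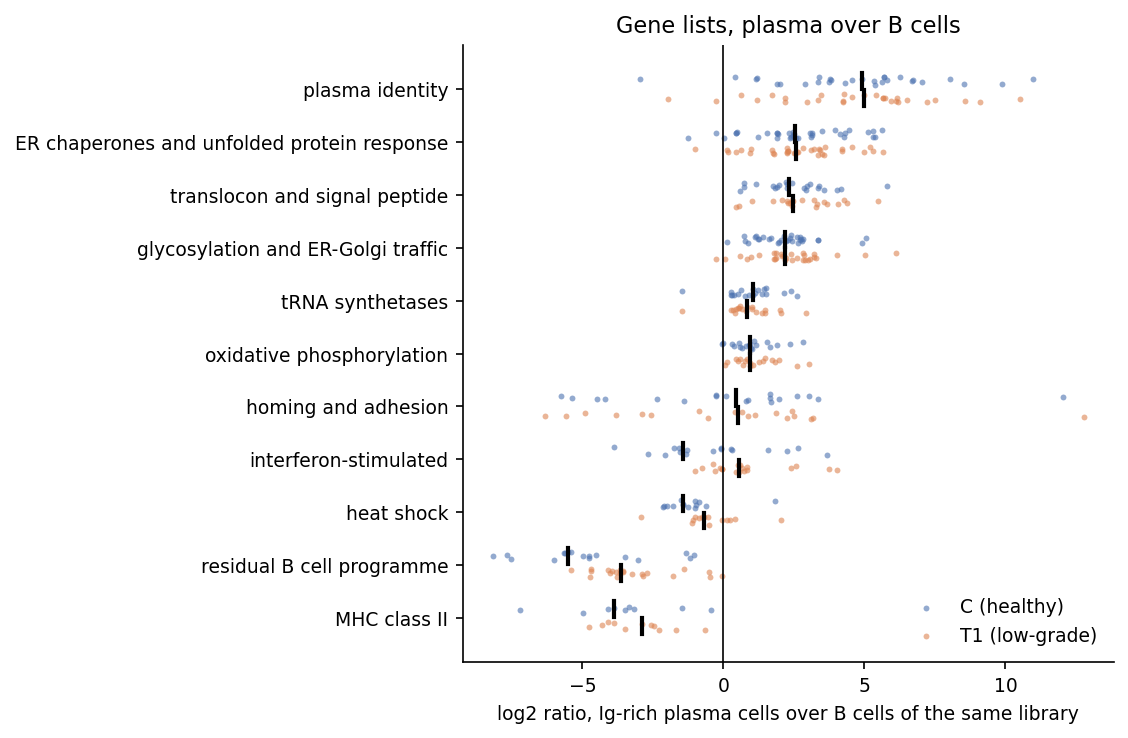
Each point is 1 gene of a list, and the x axis is the log2 ratio of its CPM in Ig-rich plasma cells over B cells of the same library; C and T1 are in different colours and black bars are list medians. Genes at 0 in plasma cells are not drawn. ER, translocon and glycosylation lists centre between 2.17 and 2.58 in both libraries, and the B cell and MHC class II lists lie at medians of -2.87 or less.

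Many ER genes share a promoter sequence through which ATF6 and XBP1 act, the ER stress response element (ERSE), spelled CCAAT, then 9 bases of any kind, then CCACG. It was searched on both strands in the 250 bases before the start of each gene in RefSeq promoters (GRCm38.p6). The letters were found in 8 of 30 matched ER chaperone and unfolded protein response genes (26.7%, of 35 listed) and in 35 of all 27025 genes (0.130%). The 8 genes were Calr, Canx, Creld2, Dnajc3, Hsp90b1, Hspa5, Pdia6 and Syvn1. Derl3 of the plasma identity list also held it, and no other list had a match. A match describes the letters, not a bound site. Plasma over B, the 8 genes had medians of 2.76 in C and 2.73 in T1, and the 22 matched ER genes without the letters 2.48 and 2.63, so the groups were close. Printed are the 250 bases before the start, 5′ to 3′ on the gene's own strand, of 4 genes that run from moderate to very high over B cells, with the ERSE in capitals (its reverse complement in Derl3 and in the second match of Hsp90b1).
Hspa5, chr2:34771840-34772089, plus strand: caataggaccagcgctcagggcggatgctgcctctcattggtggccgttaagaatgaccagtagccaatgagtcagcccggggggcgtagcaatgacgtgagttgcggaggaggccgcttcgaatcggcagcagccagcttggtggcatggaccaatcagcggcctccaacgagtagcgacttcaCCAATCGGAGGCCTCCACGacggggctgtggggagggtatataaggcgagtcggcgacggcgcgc
Hsp90b1, chr10:86705445-86705694, minus strand: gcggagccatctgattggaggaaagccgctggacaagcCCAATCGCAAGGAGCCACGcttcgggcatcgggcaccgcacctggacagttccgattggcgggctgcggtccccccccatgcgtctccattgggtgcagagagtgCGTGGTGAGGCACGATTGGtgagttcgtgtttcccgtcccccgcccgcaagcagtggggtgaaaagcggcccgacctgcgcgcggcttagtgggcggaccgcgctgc
Pdia6, chr12:17266339-17266588, plus strand: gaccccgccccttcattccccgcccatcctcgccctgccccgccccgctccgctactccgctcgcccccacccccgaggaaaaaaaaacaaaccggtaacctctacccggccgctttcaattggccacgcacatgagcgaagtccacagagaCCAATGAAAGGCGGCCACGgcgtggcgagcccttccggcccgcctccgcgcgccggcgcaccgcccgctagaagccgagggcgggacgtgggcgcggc
Derl3, chr10:75893148-75893397, plus strand: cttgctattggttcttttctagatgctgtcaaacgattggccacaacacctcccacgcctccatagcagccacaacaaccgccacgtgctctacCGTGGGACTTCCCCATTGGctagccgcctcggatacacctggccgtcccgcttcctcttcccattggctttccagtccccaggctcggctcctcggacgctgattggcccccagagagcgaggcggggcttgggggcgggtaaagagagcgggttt
The element lies 65 to 47 bases before the start in Hspa5, 98 to 80 in Pdia6 and 156 to 138 in Derl3. Hsp90b1 holds it more than once, at 212 to 194 bases and again nearer the start. The same bases stand before genes whose CPM over B cells differed widely, from 2.39 for Hspa5 to 8.04 for Derl3 on the log2 scale in C.

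Between T1 and C, Lmna, Vim, Ahnak, Ly6c2 and Ly6a were lower in T1 plasma cells and Cd52 was higher, while no measured gene of the ER list was called. A gene was called where T1 and C differed at least 2-fold, had at least 50 UMIs together, an interval that excluded equality, and no single cell with over 25% of the UMIs. Among Ig-rich cells, 2252 genes were measured, 20 were called higher in T1 (0.888%) and 39 lower (1.73%), and the median log2 ratio was 0.02. Over all members, 3097 genes were measured, 31 were higher (1%) and 114 lower (3.68%), with a median of -0.05. Of the 31 higher genes 24 were measured in Ig-rich cells and 6 were called there, and of the 114 lower genes 43 were measured and 23 called. The same rule in B cells of these libraries called 38 of 9315 genes higher (0.408%) and 99 lower (1.06%), and in all other kept barcodes 131 of 11616 higher (1.13%) and 314 lower (2.7%). The lower share in Ig-rich cells thus lay between those of B cells and of the other barcodes. CPM over all UMIs in place of those outside immunoglobulin genes gave 13 higher and 152 lower over all members. Without members whose barcode is in another library, 13 genes were called higher and 27 lower among 1868 measured in Ig-rich cells.

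Lmna (lamin A/C, a nuclear envelope protein) was lower in T1. It was found in 35 of 51 Ig-rich cells in C, at 0 to 35 UMIs with a median of 2, and in 15 of 45 in T1, at 0 to 6 with a median of 0. The summed level was 368 CPM in C and 76.6 CPM in T1, a log2 ratio of -2.26 (-2.83 to -1.74). In B cells Lmna went the other way, from 3.85 to 10.1 CPM, a ratio of 1.40.

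Vim (vimentin, an intermediate filament protein) was at 0 to 231 UMIs in C with a median of 6, and at 0 to 28 in T1 with a median of 1. The ranges overlapped from 0 upward, and the high cells were in C. Summed, Vim stood at 2034 CPM in C and 464 CPM in T1, a log2 ratio of -2.13 (-2.35 to -1.92), against 0.17 in B cells. Ahnak (a large scaffold protein under the membrane) was found in 34 C cells and 12 T1 cells, with a ratio of -2.16 (-2.91 to -1.49).

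The Ly6 surface proteins Ly6c2 and Ly6a (Sca-1), both of which mark subsets of mouse plasma cells, were lower as well. Ly6c2 reached 283 UMIs in C with a median of 3, and 42 in T1 with a median of 1. Its summed level was 2544 and 608 CPM, a log2 ratio of -2.07 (-2.26 to -1.88). Much of it sat in C cells whose barcode is also in another library: without such cells C had 539 Ly6c2 UMIs in place of 1467, and the ratio was -1.14 in Ig-rich cells, still called, and -0.69 over all members, not called. The Ig-rich C cells left out were among the deepest of C, at 35305 to 53404 UMIs. More such cells left C than T1, and the part of depth was not tested. Ly6a had medians of 10 and 1 UMIs and maxima of 205 and 114, and its ratio was -1.56 (-1.73 to -1.39). Per 10000 UMIs outside immunoglobulin genes, its median was 10.5 in C and 1.06 in T1 among IgA cells. In the 6 and 10 cells of other isotypes it was 8.69 and 9.78, so the lower median was seen in IgA cells only. Both Ly6 genes were present in most cells of both libraries: Ly6c2 in 37 and 30 cells, Ly6a in 39 and 27.

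These transcripts were carried unevenly. The 5 cells with most UMIs of the gene held 58.7% of the Ly6c2 in C and 57.8% in T1, and 63.3% and 54.9% of the Vim. Without those 5 cells in each library, Vim still had 431 UMIs in C and 93 in T1, and Ly6c2 606 and 114. For correlations, each gene was scaled to the cell's UMIs outside immunoglobulin genes. Across the 51 C cells Vim and Lmna ran together with a Spearman rho of 0.65, and Ly6c2 and Ly6a with 0.52. Over the 45 T1 cells rho was 0.48 and -0.02. Cells of 1 library share its preparation, and any part of depth left after scaling was not tested. Lmna also ran with the mitochondrial share (rho 0.54 in C, 0.31 in T1), whose part was not tested. Among cells with at most 10% mitochondrial UMIs and in the other 6 settings of the Ig-rich comparison, Lmna stayed between -2.33 and -2.04. Vim ran from -2.15 to -1.79, and was not called without shared barcodes (-1.79) or without the 5 deepest cells of each library (-2.01).

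**Figure D3:**
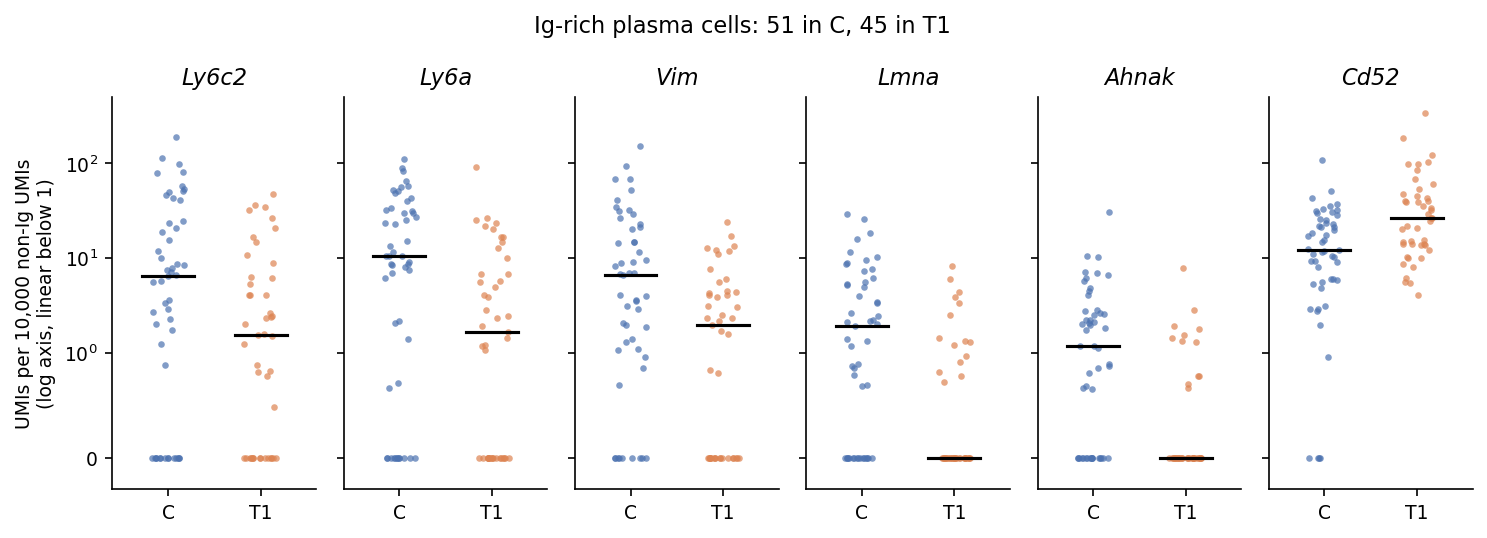
Each point is 1 Ig-rich plasma cell (51 in C, 45 in T1) and the y axis is the gene's UMIs per 10000 UMIs outside immunoglobulin genes, on a log axis that is linear below 1; black bars are medians. Ly6c2, Ly6a, Vim, Lmna and Ahnak have their highest cells in C. Cells at 0 number 14 in C and 15 in T1 for Ly6c2, 12 and 18 for Ly6a and 9 and 18 for Vim. For Lmna they number 16 and 30, and for Ahnak 17 and 33. Cd52 is found in all 45 T1 cells.

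Further genes were lower by the same rule. Klf2, a transcription factor that governs lymphocyte homing, fell by 1.39 on the log2 scale (798 UMIs in C, 235 in T1), and in B cells by 1.91. It was called in 7 of 7 settings of the Ig-rich comparison. Plin3, which coats lipid droplets, was at -1.95, with 50 UMIs in C and 10 in T1. Tmem154, a membrane protein, was at -1.58 and was found in 72.5% of C cells and 24.4% of T1 cells. Stt3b, a catalytic subunit of the enzyme that adds N-glycans, was at -1.17. It was the 1 called gene among 29 measured of the glycosylation list, beside 1.73% called lower over all genes. Stt3b was called in 4 of 7 settings of the Ig-rich comparison. It was at -0.97 in IgA cells, -0.89 without the 5 deepest cells of each library and -0.91 over all members, none of these called.

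The clearest higher gene was Cd52, which encodes a small glycoprotein anchored on lymphocytes. It was found in 47 of 51 Ig-rich cells in C, with a median of 16 UMIs and at most 101, and in all 45 in T1, with a median of 22 and at most 232. The level was 1755 CPM in C and 4132 CPM in T1, a log2 ratio of 1.24 (1.12 to 1.35). B cells differed the other way by less than 2-fold, at -0.37. Pon3, which encodes a lactonase, was found in 17 C cells and 29 T1 cells, with a ratio of 1.38 (0.77 to 2.01). Over the 7 settings of the Ig-rich comparison Cd52 stayed between 1.17 and 1.39 and Pon3 between 1.29 and 1.96.

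Some called genes are known from B cells, which transcribe them far more. H2-Ob, a subunit of the peptide-loading regulator HLA-DO, had 15 UMIs in C and 38 in T1 (1.72), Fcgr2b, the inhibitory Fc receptor, 20 and 41 (1.41), and Fcrla 30 and 53 (1.20). Ebf1, a transcription factor of the B lineage, had 20 and 59 UMIs (1.94). B cell markers summed to more in T1, 53 UMIs against 24, and their part in these values was not tested. Among IgA cells alone, Ebf1 was at 1.69 and was not called, and H2-Ob, Fcgr2b and Fcrla had too few UMIs. Without the 5 deepest Ig-rich cells of each library Ebf1 was at 1.09, with too few UMIs for a call. Over all members its direction turned, at -0.23 from 144 UMIs in C and 75 in T1, not called.

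**Figure D4:**
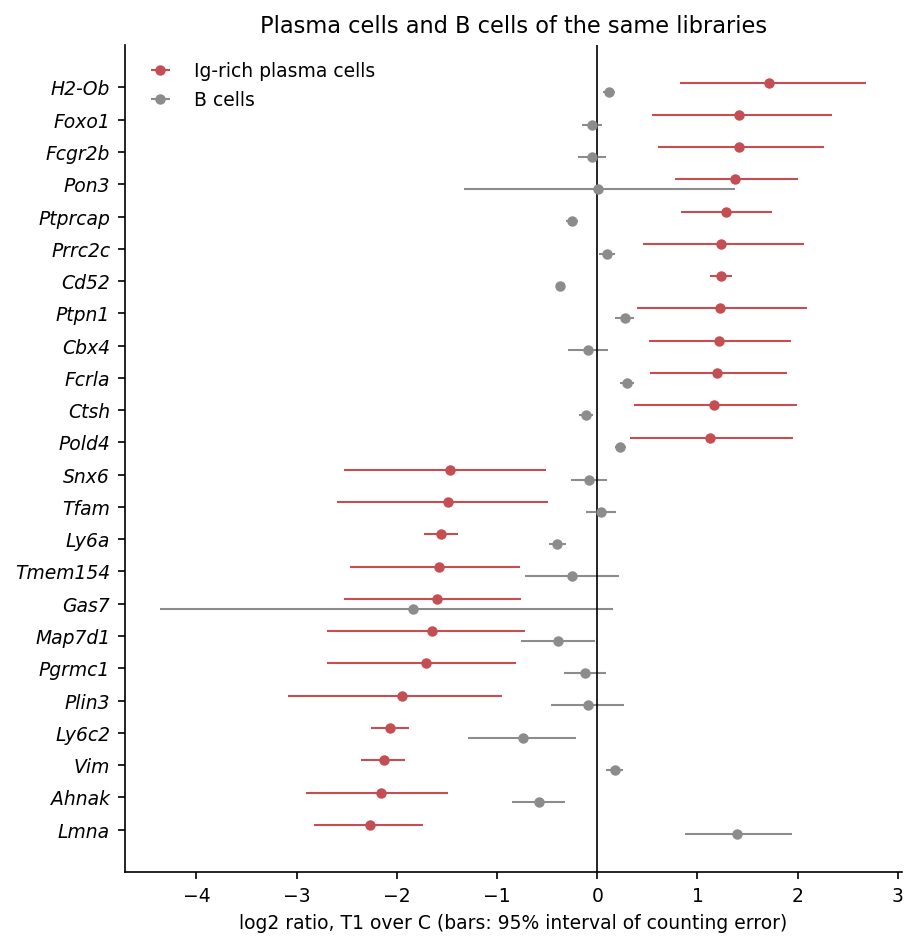
Points are log2 ratios of CPM, T1 over C, for 24 named genes in Ig-rich plasma cells (red) and in B cells (grey), with 95% intervals of counting error. Lmna lies at -2.26 in plasma cells and 1.40 in B cells, and Cd52 at 1.24 and -0.37.

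Several lists of antibody secretion had no called gene between the libraries, against 0.888% higher and 1.73% lower over all genes, so that a count of 0 in a list of this size lies near the background. In Ig-rich cells none of 32 measured ER genes was called (median -0.10), and none of 22 translocon genes (median 0.20), beside an all-gene median of 0.02. Hspa5 was at -0.19 and Hsp90b1 at -0.09. The 8 ERSE genes had a median of -0.14, from -0.49 to 0.22. Over all members the ER median was 0.32 and the translocon median 0.48, with Ssr2 and Srp68 called higher. The shift between the sets is the contribution of the 10 Ig-poor members of C and the 2 of T1. In the plasma identity list, Ly6a and Ly6c2 were the only called genes of 27 in Ig-rich cells (median -0.10), while Fkbp11, an ER prolyl isomerase, was called higher over all members at 1.25 and was at 0.90 in Ig-rich cells. Irf4 was at -0.78 and Pou2af1, a B lineage coactivator, at -0.93, and neither reached 2-fold.

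Proliferation genes were called over all members and not in Ig-rich cells. Over all members 7 of 18 measured genes were lower in T1 (median -1.15, against 3.68% lower over all genes): Ccna2, Stmn1, Cdk1, Hmgb2, Rrm2, Tuba1b and Tubb5. In Ig-rich cells none of the 8 genes with enough UMIs was called, and the median was -0.53. With 8 genes measured and 1.73% lower over all genes, that count lies near the background. Mki67, a marker of cycling cells, was in 9 of the 10 Ig-poor C members (86 UMIs), in 19 of 51 Ig-rich C cells (71 UMIs, 123 CPM) and in 11 of 45 Ig-rich T1 cells (26 UMIs, 58.5 CPM).

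In most other lists few genes were called in Ig-rich cells, beside 0.888% higher and 1.73% lower over all genes. The MHC class II list had H2-Ob and H2-Aa called higher among 7 measured genes (median 0.73), of which 5 lay above 0. Cd74 was at -0.23 from 2839 UMIs in C and 1863 in T1, H2-Ab1 at 0.77 and H2-Eb1 at 0.73. None of them was called in any of 7 settings of the Ig-rich comparison. H2-Aa was at 1.05 from 76 UMIs in C and 121 in T1, and was called in 4 of 7 settings. Among IgA cells it was at 0.69, not called. Over all members H2-Aa was at -0.21 from 354 and 187 UMIs. There none of 8 measured MHC class II genes was called (median -0.14). Among Ig-rich cells Ebf1 was the 1 called of 5 residual B cell genes. Klf2 was the 1 called of 10 homing genes, Klf6 of 14 immediate early genes and Gars of 13 tRNA synthetases. Klf6 was at -1.13, called in 4 of 7 settings of the Ig-rich comparison, and at -0.84 over all members, not called. Gars was called in 7 of 7, and was at -0.70 over all members, not called. Lars, the cytosolic leucyl-tRNA synthetase, was at -0.21 (-0.98 to 0.54) from 39 UMIs in C and 26 in T1, an interval that includes equality. Lars2, its mitochondrial counterpart in the same list, was at 0.77 (0.55 to 0.997) from 294 and 387 UMIs and did not reach 2-fold. None of 6 measured genes of amino acid transport and leucine sensing was called (median 0.17), with Slc3a2, the shared heavy chain of the large neutral amino acid carriers, at -0.83. None of 6 measured interferon-stimulated genes was called in plasma cells (median 0.53), while in B cells 10 of 22 were lower in T1, against 1.06% lower over all genes of B cells. None of 10 heat shock genes was called (median 0.04), and 5 of 13 were lower in B cells. Whether plasma and B cells differ in these lists was not tested, since each tissue is 1 library.

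Ig-rich IgA cells and Ig-rich cells of other isotypes differed in the same direction in both libraries for a small set of genes. This contrast within libraries was chosen after the values were seen, with 45 IgA and 6 other Ig-rich cells in C and 35 and 10 in T1. A gene was called where both libraries showed at least a 2-fold difference in 1 direction with intervals excluding equality, at least 20 UMIs in each library and the gene detected in 50% or more of the higher group's cells. Of 2342 genes, 10 were higher in IgA cells (0.427%) and 33 lower (1.41%). Unlike the call between T1 and C, this one set no limit on the UMIs held by a single cell. Among the other cells, 1 cell held 163 of 265 Cd79a UMIs in C and 183 of 455 in T1. For Prg2 it was 81 of 127 and 166 of 211. How many of the 33 genes rest on 1 cell was not counted. The IgA and other groups had close median immunoglobulin shares, 52.6% and 52.9% in C and 47.7% and 50.3% in T1. Their median depths were 24032 and 25021.5 UMIs in C, but 22194 and 15885.5 in T1. Jchain medians were 1314 and 1262.5 UMIs in C, and 886 and 410 in T1. The part of depth in genes at 0 was not tested. Cells within a library are not replicates of a tissue, and the other isotypes are few. The other cells of C were also not alike. The 3 with Ighg2b held 34, 215 and 683 Apoe UMIs, 30, 50 and 163 of Cd79a, 0 to 2 of Sdc1 and 0 of Tnfrsf17. The 2 with Ighm and the 1 with Ighg2c held 0 or 1 of Apoe, 6 to 9 of Cd79a, 4 to 13 of Sdc1 and 13 to 16 of Tnfrsf17. In C the Apoe and Cd79a differences thus rest on the Ighg2b cells.

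Ccr10 was carried almost only by IgA cells. It was found in 41 of 45 IgA cells in C (224 UMIs) and in 1 of 6 other cells (3 UMIs), the Ighg2c cell, whose barcode is also in another library. In T1 it was in 34 of 35 IgA cells (244 UMIs) and in 2 of 10 others (4 UMIs). The log2 ratios were 3.39 (1.82 to 5.68) and 3.73 (2.36 to 5.62). Cd28, the costimulatory receptor that supports long-lived plasma cells, had 99 UMIs in IgA cells and 5 in the others of C, and 103 and 0 in T1, where it was at least 7.48-fold higher against a limit of 3 counts over the group. Tmem176b, an ion channel-like membrane protein, had 731 and 41 UMIs in C (1.32) and 327 and 5 in T1 (3.83), and without shared barcodes its C ratio was 2.22.

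Tnfrsf17 did not have the same direction in both libraries. In T1 it was found in 32 of 35 IgA cells (173 UMIs) and in none of 10 others, at least 12.6-fold higher. In C it was in 43 of 45 IgA cells and in 3 of 6 others, whose 43 UMIs gave them the higher level (-0.53), so the gene was not called over both libraries. Sdc1 was present in most cells of both kinds, with ratios of 0.43 in C and 1.05 in T1, and was not called.

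Apoe, which encodes apolipoprotein E, was almost absent from IgA cells. In C it had 4 UMIs over 45 IgA cells and 933 over the 6 others, which held 0, 0, 1, 34, 215 and 683. In T1 it had 16 UMIs over 35 IgA cells and 1656 over the 10 others, which held 0, 1, 3, 6, 13, 17, 29, 72, 75 and 1440. A single Ighg2b cell gave 73.2% of the other cells' Apoe UMIs in C and 87.0% in T1. The log2 ratio was -10.70 in C and -8.89 in T1, and without that cell -9.03 (-10.91 to -7.65) and -6.20 (-7.03 to -5.47). The 6 myeloid markers, Lyz2, Csf1r, Itgax, C1qa, Cd68 and Fcer1g, were at 0 UMIs in all 16 other cells. Apoe is also transcribed by B cells, at 649 CPM in C and 1148 CPM in T1.

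Cd79a, Fth1, Prg2 and H2-Ab1 were among the 33 genes lower in IgA cells. Cd79a, a signalling chain of the B cell receptor, had medians of 5 UMIs in IgA cells and 19.5 in others of C, and 3 and 33 in T1, with ratios of -2.77 and -3.36, and of -1.62 and -2.86 without the top cell. Fth1, the ferritin heavy chain, was at -2.10 and -2.53, and at -1.45 and -1.63 without the top cell. Prg2, which encodes a granule protein best known from eosinophils, had 64 UMIs in IgA and 127 in other cells of C and 29 and 211 in T1, and without the top cell its ratios were -2.56 and -3.08. H2-Ab1, an MHC class II chain, was lower at -1.10 and -1.91, but without the top cell C fell to -0.39 (-0.98 to 0.26), an interval that includes equality. The 6 B cell markers summed to 16 UMIs in the 6 other cells and 8 in the 45 IgA cells of C, and to 32 and 21 in T1, and their part was not tested. Ly6c2 was at -0.34 and -0.10 between the isotypes, but 210 of the 221 UMIs of the other cells in C came from 1 cell. Without the top cell of the other isotypes its ratios were 3.56 (2.72 to 4.57) from 11 UMIs and 1.003 (0.37 to 1.71) from 22, so its direction rests on those cells.

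**Figure D5:**
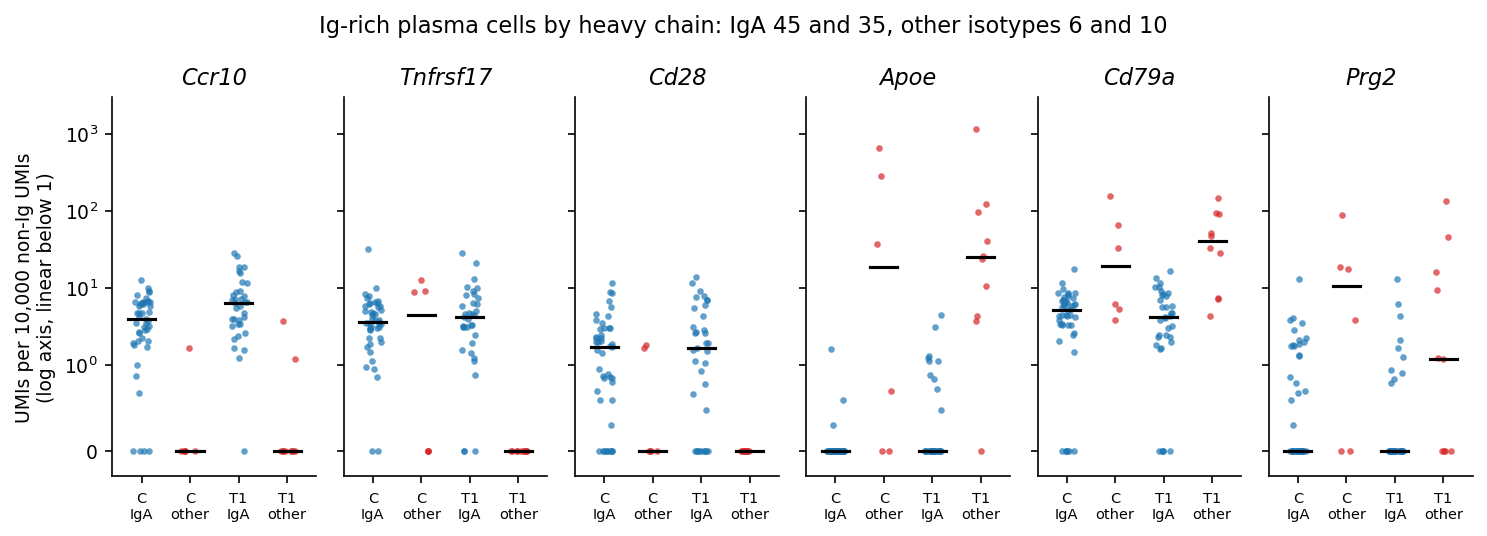
Each point is 1 Ig-rich plasma cell, split by library and by IgA or another heavy chain (45 and 6 cells in C, 35 and 10 in T1); the y axis is UMIs per 10000 UMIs outside immunoglobulin genes on a log axis that is linear below 1, and bars are medians. Ccr10 is at 0 in 5 of 6 and 8 of 10 other cells, and Apoe is at 0 in most IgA cells.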

How the data were processed

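Single-cell RNA libraries of CD45+ colon cells from C, T1 and T3 were deposited by the authors as matrices of raw UMI counts per gene and barcode, 1 library per group. The submitters' processing notes name GRCm38, Seurat 3.1.4, CASAVA 1.8 and Cell Ranger 3.1.0, without their roles. Cells were filtered and chosen as described above, and no doublet caller was run. Counts were summed over cells per library and scaled to the UMIs outside immunoglobulin genes. Ratios carry exact conditional Poisson intervals and shares exact Clopper-Pearson intervals. B cells were kept barcodes with Cd79a and Ms4a1 UMIs, under 5 Jchain UMIs and no CD3 UMI. Python 3.11.15, numpy 2.4.6, scipy 1.17.1, pandas 2.3.3 and matplotlib 3.10.9 were used. The call rule was tested on simulated cells drawn from a pooled profile, without differences between cells of a library. That test cannot show how calls hold for genes carried unevenly by the cells. Named genes were up to 12 called in each direction, ordered by log2 ratio and found in at least 10% of cells of the higher library. Not named were mitochondrial, ribosomal, immunoglobulin and predicted genes and those whose level was under 20% of that in all other barcodes. Genes of 19 lists were also named. The members, lists and call rule were chosen with earlier results of these data known. Alternatives changed the membership thresholds, the mitochondrial and gene limits, the CPM denominator, the weight of cells, the minimum count and the isotype, mixed and deep cells.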

Additional observations from a re-analysis of the deposited data

Results flagged for a closer look

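Lmna differed between T1 and C in opposite directions in plasma cells and B cells of the same libraries. The log2 ratio, T1 over C, was -2.26 in Ig-rich plasma cells and 1.4 in B cells. With 1 library per group, the difference between the cell types was not tested. Lmna was found in 1.38% of B cells in C and 3.69% in T1, from 41 and 129 UMIs.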

How the results depend on the processing

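No paired analysis was possible because each group is 1 library. Restricting cells to at least 10% immunoglobulin UMIs, alone or with another change, allowing 1 CD3 UMI, leaving out shared barcodes and all alternatives to the isotype contrast were chosen after seeing the data. The C share was 1.35% with 1 CD3 UMI allowed, IgA in C was 88.2% in Ig-rich cells, and kappa in C was 82.0% where 90% of light chain UMIs was required. The 31 genes called higher in T1 became 13 with CPM over all UMIs, 14 at 100 UMIs, 137 with no minimum, 11 in IgA cells, 11 without barcodes holding at least 2 UMIs of another cell type and 20 in Ig-rich cells. Among Ig-rich cells they were 9 in IgA cells, 13 without shared barcodes and 14 without the 5 deepest cells per library. The 114 called lower became 36 at 100 UMIs, 297 with no minimum, 40 in IgA cells, 51 at 50 Jchain UMIs, 31 without mixed barcodes and 39 in Ig-rich cells. Among Ig-rich cells they were 45 in IgA cells, 27 without shared barcodes, 28 without the deepest cells, 34 with CPM over all UMIs, 43 with equal weights and 39 at 10% mitochondrial UMIs. With CPM over all UMIs the all-gene median went from -0.05 to -0.16 over all members. In IgA cells and in Ig-rich cells, respectively, list medians moved to -0.10 and -0.10 for plasma identity, -0.18 and -0.10 for ER genes, 0.0668 and 0.20 for translocon, -0.0195 and 0.20 for glycosylation, 0.30 and 0.40 for residual B cell and 0.0424 and -0.53 for proliferation genes. With equal weights the ER median was 0.11 and the residual B cell median 0.10, and with CPM over all UMIs the oxidative phosphorylation median was -0.0640. Genes lower in T1 over all members that turned higher were Asf1b (1.67 in IgA cells, 0.38 in Ig-rich cells, and there 0.47 in IgA cells, 0.43 over all UMIs, 0.89 with equal weights and 0.33 at 10% mitochondrial UMIs), Nsd2 and Nsmce1 (both 1.07 without mixed barcodes, Nsmce1 0.52 in Ig-rich cells with equal weights), Smagp (1.15 in IgA cells, 0.012 and 0.14 in Ig-rich cells over all UMIs and with equal weights), Stmn1 (0.35 in IgA cells, 0.17 in Ig-rich cells without the deepest, 1.29 there without shared barcodes) and Orc6 (0.11 in IgA cells, 0.65 without mixed barcodes, 0.12 in Ig-rich cells without shared barcodes). Where the set of cells was unchanged, the cause was not tested. Lmna, Ahnak and Ly6a kept their direction and call in every alternative run, and Vim kept its call in 5 of 7 Ig-rich settings.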

Other observations

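Epcam was the 1 epithelial marker found in many plasma cells, chosen after its values were seen. With every cell thinned to 1000 UMIs outside immunoglobulin genes, 6 of 51 Ig-rich cells in C (11.8%, exact interval 4.44% to 23.9%) and 7 of 45 in T1 (15.6%, 6.49% to 29.5%) held it. Unthinned, the shares were 52.9% and 48.9%. B cells thinned alike held it in 0.186% in C and 0.425% in T1, leaving out 26 and 31 shallower cells, and unthinned in 1.24% and 2.77%.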
